A study of Mus musculus with 24 samples.

Results

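The genes described here are 10 genes of the blood vessel lining: 3 that mark endothelial identity (Vwf, Pecam1 and Flt1), 4 of the blood-brain barrier (Cldn5, Ocln, Abcb1a and Mfsd2a) and 3 that let leukocytes attach to the vessel wall (Icam1, Vcam1 and Selp). They were chosen by gene symbol, and all 10 were found among the 54532 genes of the count tables. Polyadenylated RNA came from whole cerebrum or cerebellum of C57BL/6J mice, given tamoxifen at postnatal day 28, that were either Polr3a mutants, in which tamoxifen induces the mutation by recombination, or wild types that received tamoxifen too. The 24 libraries formed 6 groups of 4: mutant and wild type cerebrum at postnatal day 42 (P42), mutant and wild type cerebellum at P42, and mutant and wild type cerebrum at day 75 (P75), which is 14 and 47 days after tamoxifen. At P42 each cerebrum group and the mutant cerebellum group held 2 males and 2 females, and the wild type cerebellum group 3 males and 1 female. All P75 libraries came from males. The labels do not give the Cre line or the cells in which it acts, do not say whether the wild types carry a Cre transgene, and do not say whether every library is a separate animal, so p-values measure the spread between libraries, which may be technical.

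Brain endothelial cells differ from those of most other organs in that tight junctions seal the gaps between them, efflux pumps return many drugs to the blood, and little material crosses in vesicles. Wnt ligands from the surrounding neural cells maintain these features. In the resting brain the same cells display few adhesion molecules, and inflammatory signals acting through NF-kappa B and interferon-responsive factors raise the selectins and immunoglobulin-like adhesion molecules that capture passing leukocytes. Within endothelial cells, adhesion genes are therefore a readout of activation, and barrier genes of specialisation. Libraries of whole tissue also hold RNA of other cells. Vcam1 and Icam1 are not made by endothelium alone: glial and myeloid cells can express them too.

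The sequences just upstream of the start sites of 2 adhesion genes, Icam1 and Selp, and of the barrier gene Cldn5 are shown. RefSeq promoter windows (build GRCm38.p6) were at hand for 7 of the 10 genes; Vwf, Pecam1 and Vcam1 had no entry. The windows below are the 250 bases before the start, 5′ to 3′ on the strand of the gene. Capitals mark matches, on either strand, to the NF-kappa B type motif GGNNNTTCC or to the interferon-gamma-activated type motif TTCNNNGAA; the interferon-stimulated type (GAAA, any 2 bases, GAAA) and the ETS type CCGGAAGT were searched as well. The windows are chr9:21015690-21015939 on the plus strand for Icam1, chr1:164115014-164115263 on the plus strand for Selp and chr16:18776597-18776846 on the plus strand for Cldn5.
Icam1: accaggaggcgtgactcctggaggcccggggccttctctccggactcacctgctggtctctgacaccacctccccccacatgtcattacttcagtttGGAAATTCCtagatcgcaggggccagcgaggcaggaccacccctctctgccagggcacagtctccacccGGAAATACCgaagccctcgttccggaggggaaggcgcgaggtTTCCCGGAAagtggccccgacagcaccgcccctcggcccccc
Selp: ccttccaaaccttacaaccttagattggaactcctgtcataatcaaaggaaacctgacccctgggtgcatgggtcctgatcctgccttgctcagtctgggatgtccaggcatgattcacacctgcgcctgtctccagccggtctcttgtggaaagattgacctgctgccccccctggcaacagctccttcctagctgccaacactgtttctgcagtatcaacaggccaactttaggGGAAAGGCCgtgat
Cldn5: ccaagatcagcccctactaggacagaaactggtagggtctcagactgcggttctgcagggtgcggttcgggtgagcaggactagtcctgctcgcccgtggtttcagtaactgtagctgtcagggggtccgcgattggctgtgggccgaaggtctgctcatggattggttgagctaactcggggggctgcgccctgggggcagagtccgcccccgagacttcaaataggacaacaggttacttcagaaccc
In Icam1 the NF-kappa B type motif matched at 153 to 145 and at 84 to 76 bases before the start, and TTCNNNGAA matched at 42 to 34 bases before it. In Selp 1 NF-kappa B type match lay 14 to 6 bases before the start. None of the 4 motifs was found in the windows of Cldn5, Mfsd2a, Flt1 or Ocln. The start used is that of RefSeq. For Abcb1a its window, chr5:8566841-8567090, lies far upstream of the gene as the count tables place it, so it is not the sequence next to that start and nothing is given for it. Over all 32851 promoter windows of the same length, 15.7% held GGNNNTTCC, 7.02% TTCNNNGAA, 2.98% the interferon-stimulated type and 2.88% CCGGAAGT. The matches describe letters in a window and are not shown to be bound.

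Libraries held 13832721 to 23175864 counted reads, and levels are given in CPM, counts relative to the library total after TMM scaling within a tissue and age. The level of the mutated gene was not called different in any comparison. Polr3a had 33.0 to 38.7 CPM in mutant and 35.6 to 44.3 CPM in wild type cerebrum at P42, 43.9 to 57.2 against 41.3 to 59.0 CPM in cerebellum, and 30.0 to 33.1 against 30.3 to 37.8 CPM in cerebrum at P75, with adjusted p-values of 0.562, 0.984 and 0.542. Gene counts do not separate the alleles, so they do not check the genotype labels. A set of 20 other endothelial genes was measurable in every group, with a summed level of 317 to 502 CPM. In bulk tissue, fewer cells of a type and less RNA per cell cannot be told apart.

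Compared per length of the gene, so that genes can be set side by side, Cldn5 and Mfsd2a were the highest of the 10 in every group. Cldn5, the main claudin of brain endothelium, had 28.6 ± 4.57 RPKM (CPM per kilobase of gene length, SD, n = 4) in wild type cerebrum at P75, above Mfsd2a, the lipid transporter that restrains vesicular transport, at 11.8 ± 1.60 RPKM. Abcb1a, which encodes the P-glycoprotein efflux pump, followed at 7.05 ± 0.44 RPKM, and Flt1, a VEGF receptor, at 5.49 ± 0.31 RPKM; these first 4 genes did not overlap each other in the 4 libraries. Pecam1, a junctional adhesion protein of endothelium, Vcam1 and Ocln, the tight junction protein occludin, lay between 2.99 and 3.53 RPKM, and neighbours among them overlapped. Vwf, the clotting protein stored in endothelial granules, had 1.26 ± 0.08 RPKM and Icam1 0.49 ± 0.16 RPKM. Selp, the selectin of the same granules, was at the bottom in every group, with a mean of at most 0.0435 RPKM.
In the P75 mutants the upper end kept the order Cldn5, Mfsd2a, Abcb1a and Flt1, although Mfsd2a and Abcb1a now overlapped, and Icam1 reached 2.19 ± 0.54 RPKM and overlapped Vwf at 2.41 ± 0.31 RPKM. At P42 Mfsd2a and Cldn5 overlapped in both tissues and genotypes.

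**Figure D1:**
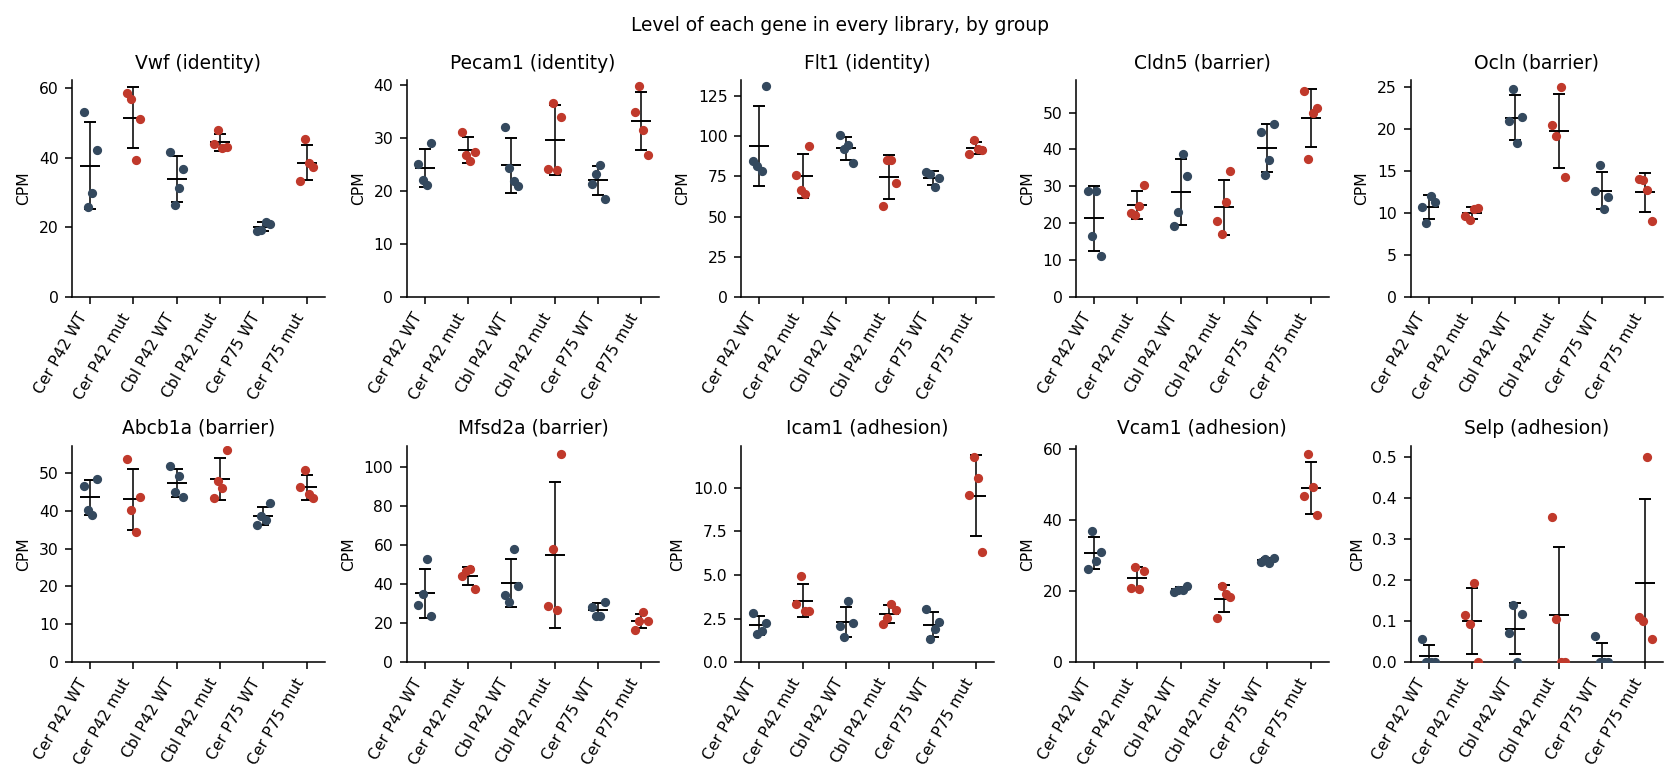
Level of each of the 10 genes in CPM (vertical axes, each from 0 with its own scale) in the 4 libraries of each group; dark blue points are wild type, red points mutant, and bars give the mean and SD. Cer is cerebrum and Cbl cerebellum. The P75 mutants lie above their wild types for Icam1, Vcam1, Vwf, Pecam1, Flt1 and Abcb1a, and the genotypes overlap for Cldn5, Ocln and Mfsd2a.

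In cerebrum at P75 the adhesion genes Icam1 and Vcam1 and all 3 identity genes were higher in mutants. The barrier genes did not share 1 direction, with log2 fold changes from -0.33 for Mfsd2a to 0.26 for Cldn5 and Abcb1a. Flt1, the identity gene that changed least, had 0.32. Of the 10 genes, 6 were called higher at an adjusted p under 0.05 (edgeR quasi-likelihood F test, Benjamini-Hochberg over 17523 genes), 0 were called lower, 3 were not called, and Selp had too few reads to be tested. Over all genes tested, 14.3% were called, 7.66% higher and 6.62% lower. Scaled by library size only, 2860 genes were called, 2313 of them higher, against 1342 of 2502 with TMM; the median of all genes then shifted to 0.11, the same number of members was called, and the estimate of Ocln changed sign to 0.092. The median log2 fold change was 1.46 for Icam1 and Vcam1, 0.59 for the 3 identity genes and 0.12 for the 4 barrier genes, beside 0.00 for all genes. The difference between the adhesion and the barrier median was 1.34, and the barrier median combines estimates of opposite sign. The members were chosen with results of these data known, so these medians are given with no test.

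Icam1, the ligand of the leukocyte integrins LFA-1 and Mac-1, changed most. Its level was 9.57, 11.8, 10.5 and 6.31 CPM in the mutant libraries (replicates 1 to 4) and 3.03, 1.33, 1.91 and 2.30 CPM in the wild types. The lowest mutant was above the highest wild type; 20% of all genes had groups that did not overlap, 10.1% with mutants higher and 9.87% with mutants lower. The log2 fold change was 2.15 ± 0.25 (SE), a 4.45-fold higher level (adjusted p = 6.81e-05). Counts behind these values were small in the wild types, 20 to 48 reads per library against 112 to 233 in mutants.

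Vcam1, the ligand of the integrin VLA-4, had 46.8, 58.6, 49.3 and 41.3 CPM in mutants and 28.3, 29.1, 27.98 and 29.3 CPM in wild types. The wild types lay within a narrow band that all mutants exceeded. Its log2 fold change was 0.77 ± 0.10 (1.71-fold, adjusted p = 0.000175).
Selp, P-selectin, on which leukocytes roll, had 15 reads over the mutant and 1 over the wild type libraries, a ratio of 14.05 per total count with a 95% Poisson interval of 2.16 to 591 that covers counting error only. Of the mutant reads, 10 came from replicate 3, so 5 remained in the other libraries. At this depth no level could be set for Selp.

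The identity genes were each higher by a smaller factor. The 4 mutant libraries had 33.3, 45.4, 38.5 and 37.5 CPM of Vwf and the wild types 19.0, 19.1, 21.7 and 20.9 CPM, with no overlap and a 1.92-fold higher level (log2 fold change 0.94 ± 0.10, adjusted p = 4.50e-05). Pecam1 had 34.8, 39.8, 31.6 and 26.7 CPM against 21.4, 23.3, 24.9 and 18.5 CPM (log2 fold change 0.59 ± 0.13, adjusted p = 0.00682). Flt1 had 88.9, 97.9, 92.2 and 91.7 CPM against 77.8, 76.2, 68.4 and 74.0 CPM (log2 fold change 0.32 ± 0.07, adjusted p = 0.00675). For all 3 the lowest mutant stood above the highest wild type. The calls of Icam1, Vcam1, Vwf, Pecam1 and Flt1 held at 0.05 in every alternative tried.

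Of the barrier genes only Abcb1a passed the test, and narrowly. It had 46.3, 50.8, 44.5 and 43.3 CPM in mutants and 36.3, 38.6, 37.5 and 41.98 CPM in wild types. The groups were separate by a small gap between 41.98 and 43.3 CPM, and the level was 1.20-fold higher in mutants (log2 fold change 0.26 ± 0.08, adjusted p = 0.0476). The call was lost in 7 of the 8 fits that left out a library, in which the adjusted p ranged from 0.0416 to 0.130, and under relative log expression scaling and without a filter on low counts. Abcb1b, a related neighbour with which some reads may be shared, had mean levels of 4.93 CPM in mutants against 2.82 CPM in wild types. How far reads were shared between the 2 genes was not tested.

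Cldn5 had 55.8, 37.4, 49.9 and 51.2 CPM in mutants and 44.8, 33.1, 37.1 and 46.9 CPM in wild types. The groups overlapped, and the log2 fold change of 0.26 ± 0.13 was not called (adjusted p = 0.194), although it was as large as that of Abcb1a. With the replicate number as a block it was called (adjusted p = 0.0250). Ocln had 14.1, 13.9, 12.7 and 9.07 CPM against 12.6, 15.7, 10.4 and 11.8 CPM, and its log2 fold change was -0.02 ± 0.16 (adjusted p = 0.961). Its SE leaves room for a change of the size seen in Cldn5 or Abcb1a.
Mfsd2a had the most negative estimate of the 9 tested genes. It had 16.8, 21.3, 25.5 and 21.2 CPM in mutants and 28.4, 23.5, 23.8 and 30.9 CPM in wild types, overlapping through mutant replicate 3. The log2 fold change of -0.33 ± 0.13 had an unadjusted p of 0.0256 and was not called (adjusted p = 0.113). Without mutant replicate 3 it was -0.43 and called (adjusted p = 0.0479), and without a filter on low counts it was called too (adjusted p = 0.0480).

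**Figure D2:**
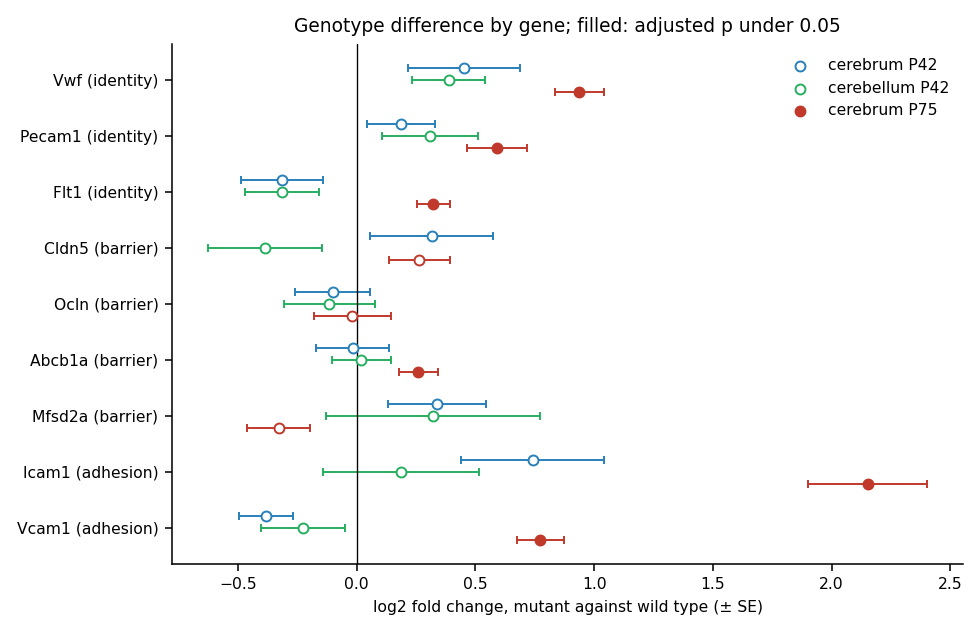
Log2 fold change of mutant against wild type (horizontal axis, points) with its SE (bars) for the 9 tested genes in the 3 comparisons; filled points passed an adjusted p of 0.05. All filled points belong to cerebrum at P75 and lie between Abcb1a at 0.26 and Icam1 at 2.15.

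Ratios within a library set the genes against each other without depending on the scaling of libraries. In P75 cerebrum, Icam1 amounted to 12.3 to 31.4% of Cldn5 in mutants and 4.03 to 6.76% in wild types, with no overlap. Vwf was 59.7 to 121% of Cldn5 in mutants and 42.4 to 58.4% in wild types, again with no overlap, but separated only between 58.4 and 59.7%. Vcam1 was 80.5 to 156% against 62.4 to 87.9%, and these ranges overlapped.
Mfsd2a went the other way: it amounted to 30.0 to 56.9% of Cldn5 in mutants and 63.5 to 71.2% in wild types. Against Abcb1a it was 36.2 to 57.4% and 61.0 to 78.3%. Relative to Cldn5 and to Abcb1a, Mfsd2a was thus lower in 4 of 4 mutant libraries than in any wild type. Relative to Ocln, the remaining barrier gene, the genotypes overlapped, as they did in CPM. Cldn5 and Abcb1a each had a log2 fold change of 0.26, and a higher denominator lowers a ratio. How many of all genes separate on these ratios was not counted.

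The summed level of the 20 other endothelial genes was 457 to 502 CPM in the P75 mutants and 365 to 399 CPM in the wild types. Relative to that sum, Cldn5 was 7.46 to 11.9% in mutants and 8.77 to 12.3% in wild types, Abcb1a 9.23 to 10.1% and 9.41 to 10.9%, and Flt1 19.0 to 20.2% and 17.1 to 21.3%. Pecam1 was 5.69 to 7.93% and 4.82 to 6.24%, and Ocln 1.93 to 3.01% and 2.61 to 4.16%. All 5 overlapped between genotypes on this scale, although Abcb1a, Flt1 and Pecam1 did not overlap in CPM. Icam1 remained apart at 1.34 to 2.34% against 0.354 to 0.830%, Vcam1 at 8.80 to 11.7% against 7.01 to 7.76%, and Vwf at 7.12 to 9.05% against 5.08 to 5.44%. Mfsd2a lay below, at 3.58 to 5.58% against 5.95 to 8.04%. At P42 the genotypes were separate on this scale for Icam1 in cerebrum, at 0.757 to 1.30% in mutants against 0.451 to 0.632%. They were also separate for Vwf in cerebellum, at 10.96 to 13.9% against 7.64 to 10.76%. The other P42 ranges on this scale overlapped. The sum itself was higher in the P75 mutants, which lowers a ratio to it. How many of all genes separate on this scale was not counted. These ratios were chosen after the members' levels were known and carry no test.

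**Figure D3:**
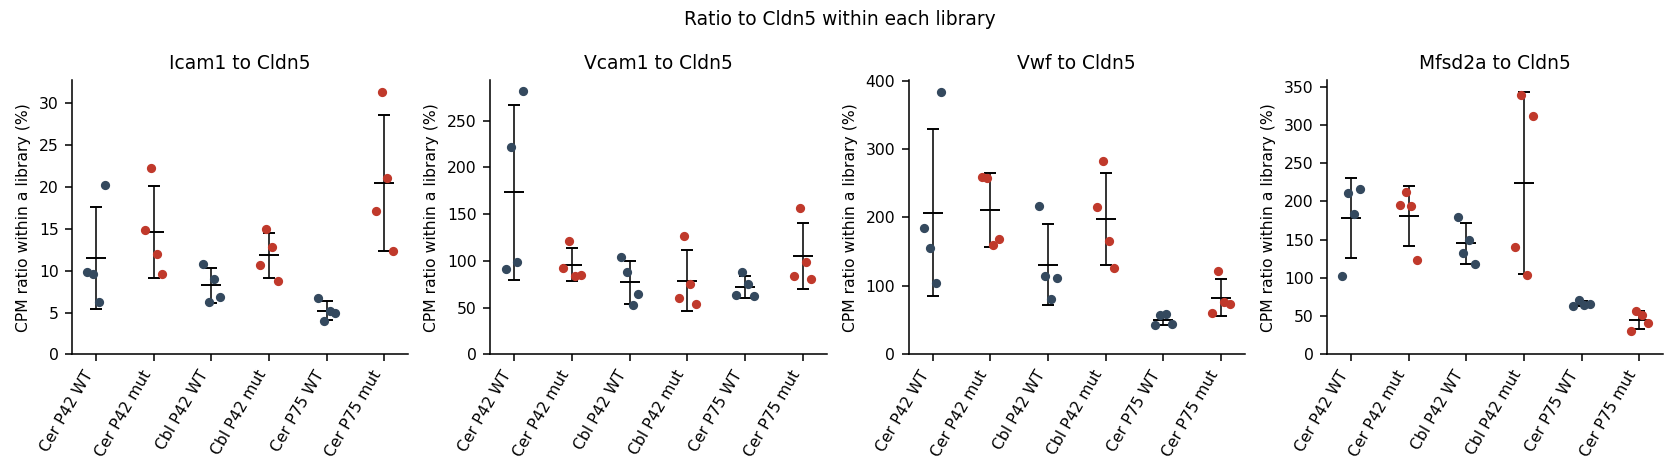
Level of Icam1, Vcam1, Vwf and Mfsd2a as a percentage of Cldn5 in the same library (vertical axes, each from 0 with its own scale), by group; dark blue points are wild type, red points mutant, and bars give the mean and SD. In cerebrum at P75 the mutant ratios of Icam1 lie above and those of Mfsd2a below every wild type ratio, while at P42 the genotypes overlap in all 4 panels.

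Other genes of the vessel wall were taken from lists. Their counts stand beside the 14.3% of all genes called at P75, 7.66% higher and 6.62% lower. The tight junction, Wnt and arterial lists, with 1 called gene each, were near the share of all genes. Of the 20 other endothelial identity genes, 6 were called higher and 0 lower, with a median log2 fold change of 0.30. Among them Eng, a TGF-beta co-receptor, stood at 51.8 ± 2.88 CPM in mutants against 31.4 ± 1.42 CPM in wild types (SD, n = 4; log2 fold change 0.72 ± 0.08, adjusted p = 3.43e-05), and Ly6c1, Podxl and Clec14a had log2 fold changes of 0.55, 0.48 and 0.87. Of 10 other tight junction genes, 1 was called higher, F11r, which encodes the junctional adhesion molecule JAM-A (log2 fold change 1.01 ± 0.17, adjusted p = 0.00126), and the median was 0.12. F11r is also made by leukocytes and platelets.
Of 14 other genes of barrier transport and transcytosis, 3 were called higher and 0 lower. All 3 are amino acid carriers: Slc3a2, Slc7a5 and Slc7a1, with log2 fold changes of 0.72, 0.86 and 0.75. They are also expressed outside the endothelium. The glucose transporter Slc2a1 (0.07), the vesicle gene Cav1 (0.02) and Plvap (0.10), which marks leaky vessels, had estimates close to 0 and were not called. Of 15 genes of the Wnt pathway that induces the barrier, 1 was called, the Wnt target Apcdd1 (log2 fold change 0.58, adjusted p = 0.00223), and the median was 0.00.
In VEGF and angiopoietin signalling, 2 of 13 tested genes were called higher, Vegfa (0.30) and Angpt1 (0.66), and 1 lower, the ligand Apln (-0.73). Of 6 venous genes 2 were called higher, Lcn2 (3.41), also an acute-phase gene of reactive astrocytes, and Slc38a5 (0.91). Of 8 arterial genes 1 was called higher, Efnb2 (0.36). Of 10 genes of haemostasis and endothelial granules 2 were called higher, among them Cd63 (0.61). Of 13 tested pericyte and smooth muscle genes 3 were called higher, Notch3 (0.49), Pdgfrb (0.38) and Myh11 (0.45).

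Genes of the signals known to induce adhesion molecules, and of the leukocyte proteins that bind them, were read from lists in the same P75 libraries. There 14.3% of all genes were called, 7.66% higher and 6.62% lower. Of 10 genes of NF-kappa B feedback and of interferon-responsive factors, 6 were called higher and 0 lower, with a median log2 fold change of 0.68. Among them, Nfkb2, Relb and Irf1 had log2 fold changes of 1.24, 1.09 and 0.88. Of 6 tested genes of inducing cytokines and their receptors 3 were called higher: the TNF receptors Tnfrsf1a (1.05) and Tnfrsf1b (1.23) and the cytokine Il1a (1.73). Ifng and Tnf had at most 0.499 CPM in any library and were not tested at P75.
Of 9 tested leukocyte ligands of the adhesion molecules 4 were called higher, with a median of 1.13. They were Itgax, Itgb2 and Itgam, subunits of the myeloid integrins, and Spn, a ligand of selectins. Itgam stood at 11.9 ± 4.10 CPM in mutants against 4.85 ± 0.75 CPM in wild types. Itga4, the VLA-4 subunit that binds Vcam1, was not called (0.09, adjusted p = 0.765). Of 5 tested further endothelial genes of leukocyte capture, Aoc3, which encodes vascular adhesion protein 1 and is also made by smooth muscle, was called higher at 7.62 ± 2.33 against 0.970 ± 0.377 CPM (2.94 ± 0.30, adjusted p = 2.11e-05), and Alcam was called lower (-0.32, adjusted p = 0.0354).

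**Figure D4:**
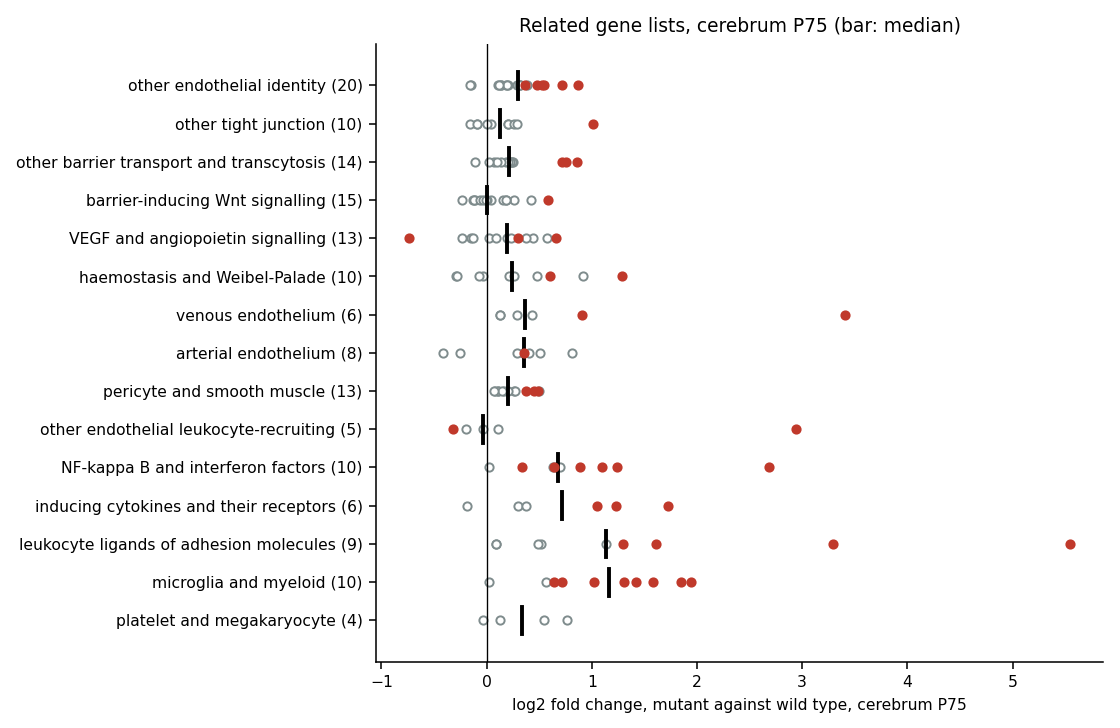
Log2 fold change of mutant against wild type in cerebrum at P75 (horizontal axis) for the tested genes of 15 related lists (number tested in brackets); each circle is a gene, filled where its adjusted p was under 0.05, and the bar is the list's median. The myeloid and leukocyte ligand medians lie at 1.16 and 1.13, the tight junction and Wnt medians at 0.12 and 0.00.

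Most microglial and myeloid markers were called higher at P75, while most tested markers of other cell types were not. The share over all genes was 14.3% called, 7.66% higher and 6.62% lower. Of 10 microglial and myeloid genes, 8 were called higher at P75, and their summed level was 905, 906, 525 and 456 CPM in mutant replicates 1 to 4 and 334 to 351 CPM in wild types. Mutant replicate 4, the lowest of the mutants in that sum, was also the lowest in Icam1, Vcam1 and Pecam1. Among the other mutants, Icam1 and Vcam1 did not keep the order of the sum. Replicate 3 had more Icam1 (10.5 against 9.57 CPM) and Vcam1 (49.3 against 46.8 CPM) than replicate 1. Pecam1 did keep that order, at 39.8, 34.8, 31.6 and 26.7 CPM in replicates 2, 1, 3 and 4, although replicates 1 and 2 hardly differed in the sum. Vwf was lowest in replicate 1, at 33.3 CPM. Of 8 T cell genes 3 were tested, Lck was called higher and Cd4 lower, and the sum was 7.35 to 9.03 against 8.67 to 10.1 CPM; Cd3d, Cd3g and Cd8a were at 0 in all P75 wild types. The astrocyte gene Gfap was 5.53-fold higher (1 of 9 astrocyte genes called, sum 4830 to 6692 against 4602 to 4953 CPM), and 3 of 6 neuronal genes were lower (sum 3792 to 4777 against 5249 to 6051 CPM). Of 4 tested platelet genes and 5 blood genes 0 were called; platelets carry both Selp and Vwf, and the platelet sum was 6.26 to 7.68 against 4.602 to 6.81 CPM, with Gp1bb and Ppbp at 0 in all mutants. How far these cells contribute to Icam1, Vcam1, Vwf, Pecam1, Mfsd2a or the other members was not tested.

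At P42, 14 days after tamoxifen, none of the 10 genes was called in either tissue. In cerebrum 0.0165% of 18205 genes were called (3 genes, all higher, so 0% were lower), while 2299 had an unadjusted p under 0.05 and DESeq2 called 233. Among the members, Icam1 and Vcam1 had an unadjusted p under 0.05, in opposite directions. Icam1 had 3.36, 4.92, 2.94 and 2.92 CPM in mutants and 2.83, 1.60, 1.80 and 2.24 CPM in wild types, without overlap as in 6.41% of genes, 3.53% with mutants higher and 2.88% lower (log2 fold change 0.74 ± 0.30, adjusted p = 0.381 by edgeR). Vcam1 had 21.0, 26.9, 20.6 and 25.7 CPM against 26.3, 36.8, 28.4 and 31.1 CPM, overlapping (-0.38 ± 0.11, adjusted p = 0.352 by edgeR).
The other members had log2 fold changes between -0.31 (Flt1) and 0.45 (Vwf). In this comparison markers of thalamus and hypothalamus had sums that did not overlap, 479 to 928 CPM in mutants against 96.3 to 274 CPM in wild types (0 of 8 genes called, median log2 fold change 2.34), and microglial markers summed to 235 to 252 against 277 to 329 CPM. Their part in the values of Icam1 and Vcam1 was not tested. Without mutant replicates 3 and 4 together, 0 members were called.

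In cerebellum at P42, 0.0114% of 17616 genes were called (2 genes, 0.00568% higher and 0.00568% lower), with 819 at an unadjusted p under 0.05 and 41 called by DESeq2. Vwf was the only member with an unadjusted p under 0.05, at 44.1, 48.1, 42.8 and 43.2 CPM in mutants and 41.6, 26.4, 31.3 and 36.7 CPM in wild types (log2 fold change 0.39 ± 0.15, adjusted p = 0.967 by edgeR). The groups were separate, as in 3.43% of genes, 1.85% with mutants higher and 1.58% with mutants lower. Icam1 had 2.19 to 3.32 CPM against 1.46 to 3.52 CPM and Vcam1 12.4 to 21.5 against 19.9 to 21.3 CPM, and both overlapped. Mfsd2a was most uneven, at 28.7, 57.7, 26.8 and 106 CPM in mutants and 34.5, 30.6, 57.9 and 38.9 CPM in wild types. The SE of its log2 fold change, 0.45, was the largest among the members in the 3 comparisons of genotype. Choroid plexus markers summed to 42.03 to 1066 CPM in mutants against 1392 to 2434 CPM in wild types, and blood markers to 2.90 to 20.4 against 9.04 to 77.5 CPM; their part in the members' values was not tested.
Selp had 8 reads in mutants and 1 in wild types in cerebrum at P42 (ratio 8.62, 95% interval 1.16 to 383) and 7 and 5 reads in cerebellum (ratio 1.11, 0.303 to 4.43).

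Cldn5 was uneven among the P42 wild type cerebra, with 28.7, 16.6, 28.7 and 11.03 CPM. Other members varied there too, Mfsd2a from 23.8 to 52.8 CPM, Vwf from 25.8 to 53.1 CPM and Flt1 from 78.3 to 131 CPM. Its transcript is rich in G and C (60.5% of bases, the highest of the 10 genes), and libraries differed in how their levels depended on base composition. The slope of log2 level, relative to the mean of the 8 libraries, on transcript GC content was -0.15 and -0.37 per 10 percentage points in wild type replicates 2 and 4, and 0.05 to 0.14 in the other libraries of that comparison. The libraries with the lowest slopes were those with the lowest Cldn5. At P75 wild type replicate 2 had both the lowest slope (-0.19) and the lowest Cldn5 (33.1 CPM). Whether base composition set these levels was not tested.

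**Figure D5:**
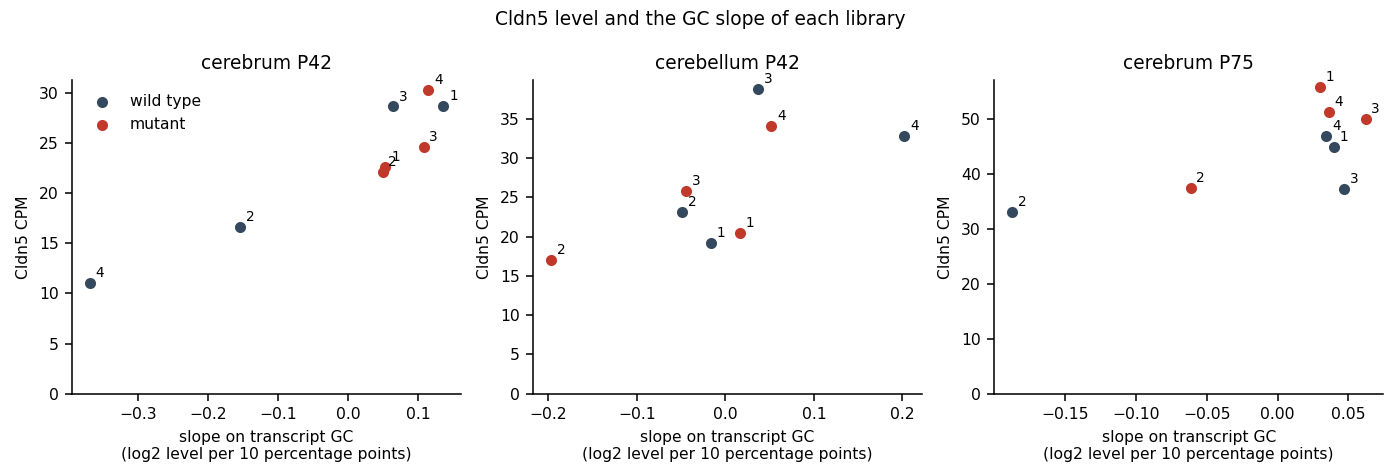
Cldn5 level in CPM (vertical axes, from 0) against the slope of log2 level on transcript GC content (horizontal axes, per 10 percentage points) in the 8 libraries of each tissue and age; dark blue points are wild type, red points mutant, and numbers are replicates. The library with the lowest slope has the lowest Cldn5 level in each panel, 11.03, 17.0 and 33.1 CPM.

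Whether the genotype difference itself changed with age was tested in cerebrum as an interaction, each age against its own wild types. Of the 10 genes, Vcam1 was called, with a difference between the P75 and the P42 log2 fold change of 1.16 ± 0.15 (adjusted p = 0.000604); 1.36% of 19273 genes were called, 1.04% with a positive and 0.322% with a negative difference. The other 8 tested members were not called. Icam1 had a difference of 1.41 ± 0.40 (adjusted p = 0.101), Flt1 0.64 ± 0.19 (adjusted p = 0.111) and Mfsd2a -0.66 ± 0.26 (adjusted p = 0.249), each with an unadjusted p under 0.05. For Flt1 and Vcam1 the P42 estimate was negative and the P75 estimate positive, and for Mfsd2a the reverse held. DESeq2 called Icam1 as well (adjusted p = 0.0247), and with the replicate block Flt1 was called (adjusted p = 0.0210). Over the 24 alternatives Flt1 was called in 3, Icam1 in 2 and Mfsd2a in 2, without a change of sign. Vcam1 stayed called in every alternative. The 2 ages also differ in sex makeup, and mutant and wild type libraries of P42 differ in regional markers as given above. The Vcam1 transcript had the lowest GC content of the 10 genes (40.1%). Its highest P42 cerebrum levels, 36.8 and 31.1 CPM, were in wild type replicates 2 and 4, the libraries with the lowest GC slopes. At P75 the library with the lowest slope, wild type replicate 2, had 29.1 CPM, within the range of the other wild types. The part of these differences was not tested.
Between tissues at P42, 0 of 9 tested members and 0% of 19614 genes were called by edgeR, while 1213 genes had an unadjusted p under 0.05 and DESeq2 called 8. None of the members had an unadjusted p under 0.05 there. The largest differences, cerebellum minus cerebrum, were -0.51 ± 0.42 for Icam1 and -0.45 ± 0.43 for Cldn5, close to their SE.

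In wild types at P42, the tissues differed in 2 members. Ocln was lower in cerebrum, at 8.78 to 12.1 CPM against 18.3 to 24.7 CPM in cerebellum (log2 difference -0.89 ± 0.16, adjusted p = 0.00219), and Vcam1 higher, at 26.3 to 36.8 against 19.9 to 21.3 CPM (0.61 ± 0.13, adjusted p = 0.00519). The CPM ranges are each scaled within a tissue, the differences within a fit of both. Choroid plexus markers summed to 245 to 1302 CPM in these cerebra and 1392 to 2434 CPM in cerebellum. Microglial and myeloid markers summed to 277 to 329 CPM in cerebrum and 135 to 170 CPM in cerebellum. The part of such cells in the differences of Ocln and Vcam1 was not tested. Of 17964 genes, 30.5% were called, 16.4% higher and 14.1% lower in cerebrum, so 2 of 9 is no more than the share of all genes. The 2 were also the members whose groups did not overlap, as in 36.4% of genes (18.8% higher and 17.6% lower). The other 7 tested members had differences between -0.32 and 0.25. With the replicate block neither was called by edgeR (adjusted p = 0.0577 for Ocln and 0.0881 for Vcam1). Wild type replicate 2 was female in cerebrum and male in cerebellum, so that number is not the same animal in both tissues. The other wild type numbers carried the same sex in both.

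For each member the 3 genes most alike in level were sought among 13663 genes, by Pearson's r of log2 CPM over the 24 libraries after subtracting the mean of each tissue and age. Genotype was not subtracted, so r includes the contrast at P75 for genes that differ there; its part in r was not tested. Icam1 was most like Ifit1 (r = 0.91), Tap1 (0.90) and Xaf1 (0.90), genes known to be induced by interferon, and Vcam1 most like Samd9l (0.92), Ptprc (0.88) and Tent5c (0.87), of which Ptprc is the pan-leukocyte marker CD45. Flt1 was most like 2 other endothelial receptors, Kdr (0.85) and Tek (0.83), and Itgb3 (0.82). Pecam1 was most like Sema6a (0.83), Mecom (0.82) and Cd86 (0.81), and Vwf most like Hspa9 (0.84), Lcn2 (0.84) and Nars (0.83).
The barrier genes had neighbours of other kinds. Med9 (0.89) and the ribosomal protein gene Rpl19 (0.88) were among the 3 genes most like Cldn5, and Mfsd2a was most like Snap47 (0.94), Got2 (0.93) and Ap1b1 (0.92), Abcb1a most like Fn1 (0.79), Mrc1 (0.78) and Rnf144b (0.76), and Ocln most like Ccdc167 (0.77), Mroh2a (0.71) and B3gnt5 (0.71). No other member was among the 3 most alike genes of any member.

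Per the count tables, Vwf (ENSMUSG00000001930) lies on chr6:125546774-125686679, Pecam1 (ENSMUSG00000020717) on chr11:106654217-106750628, Flt1 (ENSMUSG00000029648) on chr5:147561604-147726011, Cldn5 (ENSMUSG00000041378) on chr16:18776847-18778262 and Ocln (ENSMUSG00000021638) on chr13:100496507-100552718, all in mm10. Abcb1a (ENSMUSG00000040584) lies on chr5:8660077-8748575, Mfsd2a (ENSMUSG00000028655) on chr4:122946850-122961188, Icam1 (ENSMUSG00000037405) on chr9:21015985-21028817, Vcam1 (ENSMUSG00000027962) on chr3:116109949-116129688 and Selp (ENSMUSG00000026580) on chr1:164115264-164150026. All 10 are protein-coding, and their values are sums over the whole gene. Predicted genes overlap Abcb1a, Icam1, Vcam1 and Selp, each at a mean of at most 1.43 CPM. The highest of them, Gm47079 on the strand opposite to Icam1, had 1.08 CPM in the P75 mutants and 1.43 CPM in the wild types; how reads of overlapping genes were assigned is not given in the sources used here.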

How the data were processed

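Per the labels, RNA was extracted with Trizol and libraries were made by polyA enrichment. Per the submitters' processing notes, HISAT2 and DESeq2 were used with build mm10; the sources used here give no versions, read counter or annotation release. The authors deposited unscaled whole-number counts per gene, which are the basis of every test. The authors also deposited tables per comparison which, per the file headers, hold log2 fold changes with p-values, used only as a check of signs. All columns of per-sample values were matched to a sample by its title, so 0 were left out.

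Tests were run in R 4.3.3 with edgeR 4.0.16: filterByExpr (minimum count 10, minimum total 15), TMM scaling, quasi-likelihood F test, two-sided, sex as a covariate at P42, Benjamini-Hochberg adjustment over all genes tested, call at 0.05. SE is the absolute log2 fold change over the square root of F. Each comparison of genotype used the 8 libraries of a tissue and age, each interaction 16 libraries. Scripts were tested on simulated data. RPKM was computed from CPM and the deposited gene length. No 2 libraries of a group agreed within sampling noise (chi-square per degree of freedom 3.92 or more). Intervals cover counting error only, because PCR copies were not told apart from independent molecules.

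The members and gene lists were chosen with earlier results of these data known. All 10 members are named; of other lists, the genes with the smallest p in cerebrum at P75, up to 4 per list, plus a few singled out for their role after values were seen (Slc2a1, Cav1, Plvap, Itga4, Ifng, Tnf). Within-library ratios, the slopes on GC content of the longest transcript (over genes with a mean of at least 1 CPM, of which 99.9% had a GC value), and the comparison of adhesion with barrier medians under the alternatives were added after levels had been seen. Promoter windows follow a rule that named Icam1, Vcam1, Selp and Cldn5.

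The tests were repeated with DESeq2 1.42.0, with relative log expression scaling or library size only, without a filter or with at least 1 CPM in 4 libraries, with a replicate block, at an adjusted p under 0.01, with no sex term, without each library in turn, and in cerebrum at P42 without mutant replicates 3 and 4 together. Same-numbered libraries of 2 genotypes did not all correlate above 0.1 in any comparison, so the numbers were not taken as pairs in the main fits. In cerebrum at P75 each mutant library nevertheless correlated best with the wild type of its own number. Whether equal numbers shared a batch there was not tested. A few genes that the naming rule picked are not reported here.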

Additional observations from a re-analysis of the deposited data

Results flagged for a closer look

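With 4 libraries in each of 6 groups and 10 genes, 60 sets of values were checked, and 4 held a library far from the others. For normally distributed values chance alone marks about 1 in 20 sets. Flt1 in wild type cerebrum at P42 had 131 CPM in replicate 4 and 78.3 to 84.8 CPM in the other libraries; the same library had the lowest Cldn5 and the lowest slope on GC content. Selp had 0.499 CPM in mutant replicate 3 of cerebrum at P75, beside 0.0563 to 0.111 CPM in the other mutants, which rests on 10 reads. Selp was also seen as a single read in wild type replicate 1 of cerebrum at P75 (0.0631 CPM) and at P42 (0.0566 CPM), with 0 in the other wild types. A single read beside 0 is always marked, so the chance rate does not apply to these sets. For Vcam1 the genotype effect differed between the ages in cerebrum by a log2 difference of 1.16 (interaction term, adjusted p = 0.000604): all 4 mutants lay above all wild types at P75, while at P42 the estimate was negative. The cause of these values was not tested.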

How the results depend on the processing

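The alternatives were run on the 9 tested members (not Selp) in 6 comparisons, except that the P75 fit had no sex term to drop and mutant replicates 3 and 4 were left out together only in cerebrum at P42. Of the 90 alternative values of the 6 members called at P75, 0 changed sign; Icam1, Vcam1, Vwf, Pecam1 and Flt1 stayed called in all of them and Abcb1a lost its call in 10 of 15. Under relative log expression scaling its adjusted p was 0.0528 and without a filter 0.0799. The difference between adhesion and barrier medians at P75 ranged from 1.24 to 1.46. The number of members called at P75 ranged from 5 to 7.
Sign changes were of members not called in that comparison. Of all values, called members included, they made up 36 of 216 values of the interaction with tissue, 18 of 144 of the wild type tissue comparison, 8 of 216 of the interaction with age, and 6 of 153, 3 of 144 and 3 of 135 in cerebrum P42, cerebellum P42 and cerebrum P75. With library size only, Abcb1a in cerebrum at P42 became 0.048, Ocln at P75 0.092, the tissue interaction of Ocln -0.079 and of Abcb1a -0.033, and the wild type tissue difference of Pecam1 -0.048 and of Flt1 -0.066. Without mutant replicates 3 and 4, Abcb1a in cerebrum at P42 became 0.093. The tissue interaction of Ocln became -0.022 without a filter, -0.23 with the replicate block and -0.011 without the sex term; without that term Flt1 became 0.013 there and the age interaction of Cldn5 0.035. The cause was not tested.
Leaving out each library in turn, Abcb1a ranged from -0.17 to 0.089 in cerebrum and from -0.096 to 0.091 in cerebellum at P42, Mfsd2a from -0.099 to 0.62 in cerebellum, and Ocln from -0.10 to 0.11 at P75. The tissue interaction ranged from -0.29 to 0.10 for Vwf, -0.046 to 0.23 for Pecam1, -0.21 to 0.080 for Flt1, -0.15 to 0.12 for Ocln, -0.023 to 0.18 for Abcb1a, -0.43 to 0.40 for Mfsd2a and -0.071 to 0.26 for Vcam1. The age interaction ranged from -0.21 to 0.19 for Cldn5 and -0.028 to 0.18 for Ocln. The wild type tissue difference ranged from -0.044 to 0.41 for Vwf, -0.089 to 0.20 for Pecam1, -0.15 to 0.16 for Flt1, -0.50 to 0.17 for Cldn5, -0.10 to 0.066 for Abcb1a, -0.35 to 0.11 for Mfsd2a and -0.22 to 0.21 for Icam1.
Counts of genes called moved more than the members did. In cerebrum at P42 they were 233 with DESeq2, 0 with library size only, 1312 without a filter, 0 with the stricter filter, 8 with the replicate block, 0 at 0.01, 0 without the sex term, 0 without mutant replicates 3 and 4, and 0 to 11 leaving out a library, with 11 without mutant replicate 1. In cerebellum they were 41 with DESeq2, 153 without a filter, 1 with the block, at 0.01 and without the sex term, and 1 to 2 leaving out a library. No member was called at P42 in any of these. At P75 there were 1086 at 0.01 and 1356 to 2783 leaving out a library, with 1356 when mutant replicate 1 was left out and 1634 when wild type replicate 4 was. For the tissue interaction there were 8 with DESeq2, 279 without a filter, and 0 to 2 leaving out a library. For the age interaction DESeq2 called 670 genes and 2 members, no filter 1176 genes and 4 members, the replicate block 2 members, and 0.01 called 100 genes; leaving out a library gave 124 to 1169 genes, with 1169 without P42 mutant replicate 1, and 1 to 2 members. Between wild type tissues the block called 2658 genes and 0 members, and 0.01 called 3311 genes.
The block assumes that equal numbers share an animal or batch, which the labels do not say. Over both genotypes 3 of 8 numbers differ in sex between the tissues, and among wild types only replicate 2 does. In cerebrum at P75 each library correlated best with its own number, but 2 of 4 correlations were under 0.1. It changed the call of Cldn5 at P75, Flt1 in the age interaction, and Ocln and Vcam1 between tissues, and of no other member. Wild type Icam1 rests on 20 to 50 reads per library, and Selp on too few for a test.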

Other observations

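In P75 cerebrum the members of a group differed among themselves. Vwf rose 1.92-fold where Flt1 rose 1.25-fold, and within the barrier group Mfsd2a had an estimate of -0.33 and Cldn5 and Abcb1a of 0.26 each. Across ages, wild type Mfsd2a had 23.8 to 52.8 CPM at P42 and 23.5 to 30.9 CPM at P75, and Cldn5 11.03 to 28.7 and 33.1 to 46.9 CPM; the ages were deposited as separate tables and scaled separately, so age and run cannot be told apart. In the authors' deposited table for P75 cerebrum, Icam1 had a log2 fold change of 2.15 and Mfsd2a of -0.33 (adjusted p of 0.0906), and the sign equalled that of the edgeR fit for 99.4% of genes.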
